A study of Mus musculus with 10 samples.

Results

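The zinc-dependent histone deacetylases remove acetyl groups from lysines of histones and other proteins, and fall into classes I, IIa, IIb and IV. The 10 genes described here were chosen by symbol from 16865 listed genes, and they are a given set that does not hold every class IIa gene of the table. They comprise 4 genes of class I, 3 of class IIa, 2 of class IIb and 1 of class IV. All 10 passed the filter on low values, which required a normalized count of at least 10 in at least 5 libraries and left 13567 genes. RNA was sequenced from 10 leukemic spleens of C57BL/6 mice. The recipients had been sublethally irradiated and had then received T-ALL (T cell acute lymphoblastic leukemia) by vein, and the leukemia carried a conditional Sirt1 allele in both groups. The Sirt1 deleted group held 5 libraries from recipients treated with 3 mg of tamoxifen per mouse in corn oil, and the Control group held 5 libraries from recipients treated with corn oil alone. Deletion and tamoxifen came together, so their effects cannot be told apart. The driver of the deletion, the age of the mice and the leukemia that each recipient received are not given in the sources used here. Nothing says whether the spleens of a group came from separate leukemias, so p-values measure only the spread between these samples.

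Of the class I enzymes, Hdac1 and Hdac2 are catalytic subunits of the nuclear corepressor complexes NuRD, SIN3, CoREST and MiDAC, and Hdac3 of NCoR/SMRT. Class IIa proteins have little catalytic activity of their own. They bind MEF2 transcription factors and leave the nucleus on 14-3-3 proteins once kinases have phosphorylated them, and Hdac7 is known as the abundant class IIa member of thymocytes. SIRT1, the product of the deleted gene, is a deacetylase of another family, which uses NAD in place of zinc.

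Sirt1 itself was at 710 to 1071 normalized counts in Sirt1 deleted libraries, against 1126 to 1348 in Control libraries, and the groups did not overlap (log2 difference -0.44, exact permutation p = 0.00794). After the length and GC correction described with the members the Sirt1 difference was -0.26 (limma adjusted p = 0.0313), and -0.22 at the second-longest transcript (limma adjusted p = 0.0323). Normalized totals ran from 33.6 to 34.8 M per library, and read depths estimated from the spacing of low values were 21.2 to 38.7 M in Sirt1 deleted libraries and 28.5 to 44.6 M in Control libraries. Libraries also differed in how values followed transcript length. Each doubling of length went with a mean change in log2 deviation of -0.0805 ± 0.0729 in the Sirt1 deleted group and 0.0805 ± 0.0497 in the Control group (SD, n = 5, exact permutation p = 0.00794). Deviations were taken from each gene's mean over all 10 libraries, so the group means mirror each other. Only the difference between the groups is informative, and neither sign describes a group by itself. In bulk RNA, fewer cells of a type and less RNA per cell cannot be told apart. Of 16 T cell markers tested, 4 were called higher and 1 lower in Sirt1 deleted libraries, and their summed level was 240894 to 285591, against 237772 to 258434 in Control libraries. Of 12 B cell markers tested, 3 were called higher and 1 lower, with sums of 390 to 607 in Sirt1 deleted libraries and 340 to 450 in Control libraries. Of 15 macrophage markers, 7 were called lower, with sums of 7198 to 11022 in Sirt1 deleted libraries and 11746 to 17118 in Control libraries. Of 13 neutrophil markers 2 were called higher and 0 lower. Of 16 erythroid markers 0 were called higher and 5 lower, or 7 of 15 lower after correction. After correction 0 T cell markers were called higher and 1 lower, and 2 B cell markers higher and 0 lower. For macrophage markers 0 were then higher and 7 lower, and for neutrophil markers 0 were called in either direction. The groups did not overlap for 5 of 15 macrophage and 3 of 16 erythroid markers, against 16.5% of all tested genes. Over all tested genes 14.5% were called higher and 17.5% lower as deposited, and 8.29% higher and 6.07% lower after correction. The sums of neutrophil markers were 2403 to 9954 in Sirt1 deleted and 1918 to 5171 in Control libraries, and those of erythroid markers 220371 to 494518 in Sirt1 deleted and 440858 to 561202 in Control libraries. Of 4 NK cell markers tested 0 were called, and of 2 endothelial and stromal markers 1 was called lower. In each list, 0 of the markers in the table were at 0 in all libraries. Fits with the macrophage or B cell markers in the model are given beside Hdac4, and the part of the other cell types in the results was not tested.

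Of the 10 deacetylases, 1 was called lower in the Sirt1 deleted group and 0 were called higher. The call was an adjusted p under 0.05 from limma, adjusted over all 13567 genes, of which 32% were called (17.5% lower and 14.5% higher). The called gene was Hdac4, at 79.0% of the Control level. At an unadjusted limma p under 0.05, 3 members were also higher (Hdac2, Hdac3 and Hdac8). This count was 0 with libraries scaled to equal totals, 4 after quantile normalization and 0 to 3 without single libraries. It was also 0 with the length slope, B cell or macrophage markers in the model, and without the 3 libraries of steepest slope. The share of all tested genes at this unadjusted threshold was not counted, so the count says nothing particular of the members. The median absolute log2 difference was 0.12 over the 10 members and 0.19 over all genes tested. The groups overlapped for all 10 members, while they did not overlap for 16.5% of the tested genes (8.18% lower and 8.28% higher in Sirt1 deleted libraries). Within groups the median coefficient of variation of the members was 6.90% in Sirt1 deleted libraries and 4.98% in Control libraries. Over all tested genes, which were not matched for level, it was 11.9% in Sirt1 deleted and 8.18% in Control libraries. Hdac4 (13.8% in Sirt1 deleted and 12.5% in Control libraries) and Hdac11 (13.0% in Sirt1 deleted and 17.4% in Control libraries) lay above those medians.

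**Figure D1:**
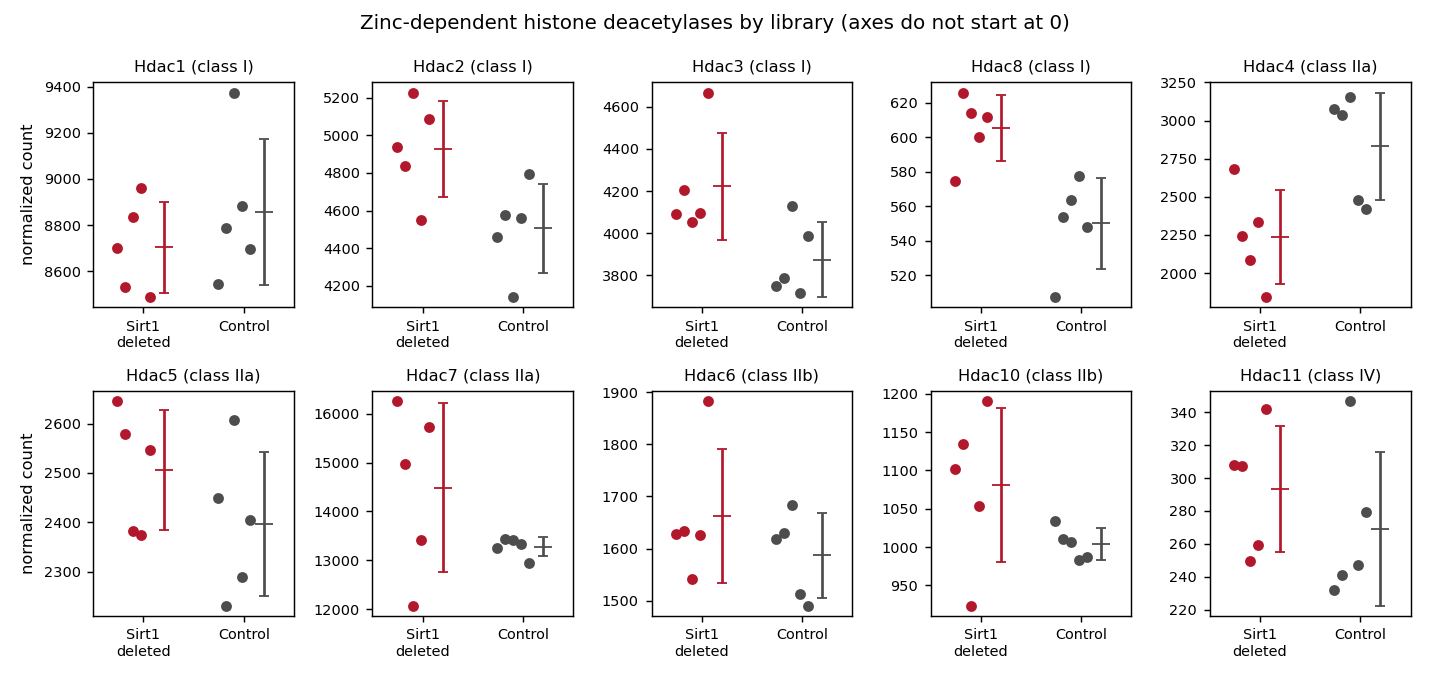
Normalized counts of the 10 deacetylases, 1 point per library, with Sirt1 deleted libraries (n = 5) left of Control libraries (n = 5) and the mean ± SD beside each group; axes do not start at 0. Hdac4 is the member with the lower Sirt1 deleted values (1845 to 2679, against 2419 to 3151 in Control libraries), and Hdac7 and Hdac10 spread more widely in Sirt1 deleted than in Control libraries.

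The RefSeq promoter windows (GRCm38.p6, from 250 bases before to 50 after the start) of Hdac4, the called member, and of Hdac5, its class IIa relative that was not called, are shown because they differ in the motifs they hold. Capitals mark the Sp1 GC box GGGCGG and a MEF2 site, whose letters are the run of 10 capitals in the Hdac5 window, each searched on both strands, with no overlap between the matches. The Hdac4 window lies at chr1:92180292-92180591 (minus strand) and the Hdac5 window at chr11:102230123-102230422 (minus strand). They are unlike kinds of start: the Hdac4 window lies inside the gene as GENCODE M21 bounds it, at an internal start, while the Hdac5 window spans the outer end of its gene.
Hdac4: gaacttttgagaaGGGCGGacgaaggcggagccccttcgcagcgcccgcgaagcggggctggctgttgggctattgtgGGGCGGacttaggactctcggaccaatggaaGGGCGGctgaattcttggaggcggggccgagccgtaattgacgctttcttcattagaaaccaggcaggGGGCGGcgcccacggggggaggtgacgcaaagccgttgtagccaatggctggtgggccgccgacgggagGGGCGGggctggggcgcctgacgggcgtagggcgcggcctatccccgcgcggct
Hdac5: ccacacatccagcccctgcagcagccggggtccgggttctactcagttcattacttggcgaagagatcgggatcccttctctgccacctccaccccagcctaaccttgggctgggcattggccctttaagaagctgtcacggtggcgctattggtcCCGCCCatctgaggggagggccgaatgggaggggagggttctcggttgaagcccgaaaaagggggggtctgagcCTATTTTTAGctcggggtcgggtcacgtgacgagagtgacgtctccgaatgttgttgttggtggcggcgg
The Hdac4 window held 5 GC boxes and 32 CG dinucleotides, and the Hdac5 window held 1 GC box and 18 CG dinucleotides, where the median over all promoter windows was 7 CG dinucleotides. The window of Hdac6, which was not called either, also held 5 GC boxes. A GC box was present in 35.7% of 32851 promoter windows of this length. The MEF2 letters stood once in the Hdac5 window and not in the Hdac4 window, and 36 of the 32851 windows (0.110%) held them. Windows were found for 7 of the 10 members. A match is a description of the letters only.

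Levels of different genes were compared per kilobase of the longest coding transcript in GENCODE M21. Hdac1 was the most abundant member, with 4270 ± 97.4 normalized counts per kilobase in the Sirt1 deleted group and 4346 ± 154 in the Control group (SD, n = 5 each). Hdac7 followed at 3429 ± 408 in the Sirt1 deleted and 3142 ± 46.6 in the Control group. Hdac3 came next, at 2078 ± 125 per kilobase in the Sirt1 deleted and 1907 ± 87.1 in the Control group, ahead of Hdac2 at 1516 ± 79.1 in the Sirt1 deleted and 1386 ± 73.1 in the Control group. These 4 genes kept this order in all 10 libraries. Hdac5, Hdac10 and Hdac6 came next, between 401 and 516 per kilobase in the Sirt1 deleted group and 383 and 494 in the Control group. They kept their order within each of the 10 libraries. Among Sirt1 deleted libraries, however, the ranges of Hdac5 and Hdac10 overlapped, as did those of Hdac10 and Hdac6. The ranges of Hdac6 and Hdac4 overlapped among Control libraries, though Hdac6 stood above Hdac4 in all 10 libraries. By group mean Hdac4 and Hdac8 stood in opposite order in the groups, with Hdac4 above Hdac8 in 6 of 10 libraries: Hdac4 stood at 276 ± 38.1 per kilobase in the Sirt1 deleted and 349 ± 43.5 in the Control group, and Hdac8 at 313 in the Sirt1 deleted and 284 in the Control group. Hdac11 was lowest, at 111 ± 14.4 in the Sirt1 deleted and 102 ± 17.6 in the Control group.

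Summed per kilobase, class I genes made up 61.3% ± 2.45 of the deacetylase transcripts in the Sirt1 deleted group and 61.9% ± 0.700 in the Control group. Class IIa genes made up 31.5% ± 2.24 in the Sirt1 deleted group and 31.1% ± 0.573 in the Control group, and Hdac7 alone made up 25.6% in the Sirt1 deleted and 24.5% in the Control group. The class shares thus differed between the groups by less than their SD. Scaled to the second-longest coding transcript, Hdac2 stood above Hdac3, and Hdac4 took rank 7 in the Sirt1 deleted group and rank 5 in the Control group, above Hdac8 at rank 9 in both. The transcripts that these cells used were not measured, so the order below Hdac7 depends on this choice.

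**Figure D2:**
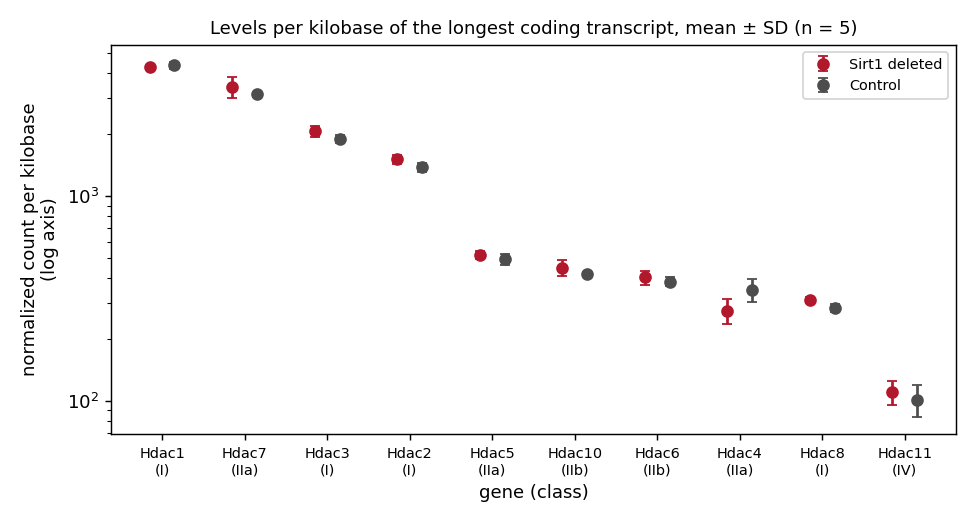
Normalized counts per kilobase of the longest coding transcript (log axis) for each deacetylase, as mean ± SD of 5 libraries, with Sirt1 deleted left of Control in each pair. Hdac1 and Hdac7 lead in both groups, Hdac7 with 3429 per kilobase in the Sirt1 deleted and 3142 in the Control group, and Hdac4 is the gene whose Sirt1 deleted mean (276) lies visibly below its Control mean (349).

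The class I gene Hdac1 (chromosome 4, 129516104 to 129542713, minus strand, GRCm38) was steady. Sirt1 deleted libraries 1 to 5 held 8699, 8534, 8834, 8960 and 8489 normalized counts, and Control libraries 1 to 5 held 8545, 8788, 9374, 8882 and 8696. The groups overlapped nearly completely. The log2 difference was -0.02, with a 95% interval of -0.12 to 0.07 (limma adjusted p = 0.688). Quantile normalization turned its sign (0.03).

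Hdac2 (chromosome 10, 36974544 to 37001889, plus strand), the close relative of Hdac1 in the same complexes, stood at 4936, 4836, 5228, 4553 and 5086 in Sirt1 deleted libraries 1 to 5. Control libraries 1 to 5 held 4459, 4576, 4142, 4558 and 4794. Of the 5 Sirt1 deleted libraries 4 lay above every Control library. Between the groups the log2 difference was 0.13 (SE 0.0546, 95% interval 0.01 to 0.25), with an exact permutation p = 0.0317 and a limma adjusted p = 0.0847, which did not pass. With each library corrected for transcript length and GC content, the difference was 0.22 and passed (limma adjusted p = 0.0236, exact permutation p = 0.0159). Corrected at the second-longest coding transcript it was 0.15 (limma adjusted p = 0.0368), while with the length slope as a covariate it was 0.06 (limma adjusted p = 0.982). Without Sirt1 deleted library 4 the uncorrected difference was 0.16 and passed (limma adjusted p = 0.048).

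Hdac3 (chromosome 18, 37935844 to 37955016, minus strand), the enzyme of the NCoR/SMRT complex, held 4089, 4204, 4055, 4098 and 4667 in Sirt1 deleted libraries 1 to 5. Control libraries 1 to 5 held 3752, 3790, 4131, 3717 and 3985. Sirt1 deleted library 5 stood apart from the others of its group. The log2 difference was 0.12 (95% interval 0.01 to 0.24, limma adjusted p = 0.0967), and 0.06 after the length and GC correction (limma adjusted p = 0.322).

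Hdac8 (chromosome X, 102284639 to 102505359, minus strand), which deacetylates the cohesin subunit Smc3, held 575, 626, 614, 600 and 612 in Sirt1 deleted libraries 1 to 5. Control libraries 1 to 5 held 507, 554, 564, 578 and 548. All 5 Sirt1 deleted libraries lay above the Control median, and 4 lay above the highest Control library. Its log2 difference was 0.14 (95% interval 0.00 to 0.27, exact permutation p = 0.0159, limma adjusted p = 0.101), and 0.07 after correction (limma adjusted p = 0.371).

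Within class I, Hdac1 stood slightly lower against its relatives: 2 of its 3 ratios passed as deposited and 0 passed after correction. The corrected differences of the 3 ratios were about as large or larger, and each stood just above the threshold (adjusted exact permutation p = 0.0529). That adjusted p depends on all 10 pairs compared. A ratio of genes in the same library does not depend on how libraries are scaled. All 10 pairs of members within a class were compared by exact permutation, with p-values adjusted over the 10 pairs. The ratio of Hdac1 to Hdac8 was 15.1, 13.6, 14.4, 14.9 and 13.9 in Sirt1 deleted libraries 1 to 5, and 16.8, 15.9, 16.6, 15.4 and 15.9 in Control libraries 1 to 5. Every Sirt1 deleted library lay below every Control library. The log2 ratio differed by -0.16 (SE 0.0377, exact permutation p = 0.00794, the smallest possible for 5 against 5, adjusted p = 0.0397). The longest coding transcripts of Hdac1, Hdac3 and Hdac8 have 2038, 2032 and 1936 bases, and the correction for length and GC content left the Hdac1 to Hdac8 difference at -0.16 (exact permutation p = 0.00794, adjusted p = 0.0529). Without single libraries it lay between -0.18 and -0.14. It did not pass without Control library 1 (-0.15), Control library 3 (-0.15), Sirt1 deleted library 2 (-0.14) or Sirt1 deleted library 5 (-0.15), where 4 libraries against 5 allow no exact p below 0.0159.

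The ratio of Hdac1 to Hdac3 averaged 2.07 ± 0.153 in the Sirt1 deleted group and 2.29 ± 0.0758 in the Control group (SD, n = 5 each). The log2 ratio differed by -0.15 (exact permutation p = 0.0159, adjusted p = 0.0397), and the groups overlapped only in Sirt1 deleted library 4 and Control library 5. It was -0.14 after correction (adjusted exact permutation p = 0.0529), and it passed in 2 of the 10 settings that leave out 1 library (Sirt1 deleted library 1 or 4), with a range of -0.17 to -0.10. The ratio of Hdac1 to Hdac2 averaged 1.77 ± 0.118 in the Sirt1 deleted and 1.97 ± 0.171 in the Control group. It differed by -0.15 (exact permutation p = 0.0397, adjusted p = 0.0794), which did not pass, and by -0.30 after correction (adjusted exact permutation p = 0.0529). The ratios among Hdac2, Hdac3 and Hdac8 differed by -0.02 to 0.01 with adjusted exact permutation p = 0.913 for each.

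Hdac4 (chromosome 1, 91928779 to 92195699, minus strand), a class IIa corepressor of MEF2 factors, fell. Sirt1 deleted libraries 1 to 5 held 2679, 2241, 2088, 2338 and 1845 normalized counts, and Control libraries 1 to 5 held 3073, 3034, 3151, 2477 and 2419. Of the Sirt1 deleted libraries 4 lay below every Control library, while Sirt1 deleted library 1 lay above Control libraries 4 and 5. The log2 difference was -0.34 (SE 0.103, 95% interval -0.56 to -0.12, limma adjusted p = 0.0261, exact permutation p = 0.0397).

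The Hdac4 call depended on libraries and on transcript length. It did not pass without Control library 1 (-0.309), Control library 2 (-0.313), Control library 3 (-0.300) or Sirt1 deleted library 2 (-0.344). With 8100 bases, the longest Hdac4 coding transcript exceeds that of 95.2% of tested genes. After correction at that length the difference was -0.04 (95% interval -0.18 to 0.09, limma adjusted p = 0.666), so the correction took up -0.30 of it. Corrected at the second-longest coding transcript, of 3937 bases, it was -0.26 and still passed (limma adjusted p = 0.0441). The difference was -0.19 without the 3 libraries of steepest length slope (limma adjusted p = 0.289) and 0.07 with the slope as a covariate (limma adjusted p = 0.983). It was -0.34 with B cell markers in the model (limma adjusted p = 0.151) and -0.43 with macrophage markers in it (limma adjusted p = 0.13), so it was about as large or larger but did not pass. Those 4 fits called few genes of the whole table: 3 without the 3 libraries, 0 with the slope, 1 with the B cell markers and 0 with the macrophage markers.

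Among 12369 tested genes ranked by the root mean square difference of their log2 deviations from Hdac4 over the 10 libraries, the nearest was Bcr (0.0440), which encodes a GTPase regulator. Prrc2b (0.0463) and the nuclear receptor coactivator Ncoa1 (0.0471) followed, against an SD of 0.255 for Hdac4 itself. Their log2 differences were -0.33, -0.39 and -0.33 in that order, and the choice by nearness over these libraries made them close to that of Hdac4. Their longest transcripts have 6839, 10671 and 7329 bases, and all 3 lost their calls after correction (limma adjusted p = 0.131, 0.115 and 0.849). At the second-longest coding transcript Bcr kept its call, and Prrc2b (-0.141) and Ncoa1 (-0.111) did not. Without Control library 1 or 2, Bcr (-0.306 and -0.316) and Ncoa1 (-0.311 and -0.288) were not called, nor was Bcr without Control library 3 (-0.296).

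Hdac5 (chromosome 11, 102194432 to 102230166, minus strand) is the class IIa gene whose protein is most like Hdac4 in the set. It held 2645, 2578, 2382, 2374 and 2547 in Sirt1 deleted libraries 1 to 5, and 2450, 2231, 2607, 2289 and 2404 in Control libraries 1 to 5. The groups overlapped widely, and the log2 difference was 0.06 (95% interval -0.06 to 0.19, limma adjusted p = 0.396). After correction it was 0.13 (limma adjusted p = 0.107), and without Control library 2 the uncorrected difference was 0.04.

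Hdac7 (chromosome 15, 97792664 to 97844502, minus strand) was at 16255, 14977, 12074, 13414 and 15727 in Sirt1 deleted libraries 1 to 5. Control libraries 1 to 5 held 13243, 13432, 13423, 13337 and 12953. The Control libraries lay close together, while 3 Sirt1 deleted libraries lay above all of them and 1 lay below all of them. The coefficient of variation was 11.9% in the Sirt1 deleted group and 1.48% in the Control group; this difference was not tested. The log2 difference was 0.12 (95% interval -0.04 to 0.28, limma adjusted p = 0.23). Without Sirt1 deleted library 3 it was 0.18 and passed (limma adjusted p = 0.0355), and without Sirt1 deleted library 1 it was 0.07 and did not.

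Within class IIa, Hdac4 stood lower against both relatives in the set. Hdac9, a class IIa gene outside the set, fell by more than Hdac4 (log2 difference -0.72 against -0.34). The ratio of Hdac4 to Hdac9 was not tested. The ratio of Hdac4 to Hdac7 was 0.165, 0.150, 0.173, 0.174 and 0.117 in Sirt1 deleted libraries 1 to 5, and 0.232, 0.226, 0.235, 0.186 and 0.187 in Control libraries 1 to 5. The groups did not overlap, and the log2 ratio differed by -0.46 (SE 0.131, exact permutation p = 0.00794, adjusted over the 10 pairs 0.0397). It did not pass without Control library 1 (-0.43), Control library 3 (-0.42), Sirt1 deleted library 2 (-0.45) or Sirt1 deleted library 5 (-0.36). The ratio of Hdac4 to Hdac5 averaged 0.894 ± 0.114 in the Sirt1 deleted and 1.18 ± 0.140 in the Control group, a log2 difference of -0.41 (exact permutation p = 0.0159, adjusted p = 0.0397). It passed in 3 of the 10 settings that leave out 1 library (Control library 5, Sirt1 deleted library 1 or Sirt1 deleted library 4), over a range of -0.46 to -0.33. After the length and GC correction the differences were -0.17 for both ratios, and neither passed (exact permutation p = 0.0635 for Hdac7 and 0.0714 for Hdac5, adjusted p = 0.102 for each). The ratio of Hdac5 to Hdac7 differed by -0.05 (exact permutation p = 0.437, adjusted p = 0.635).

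**Figure D3:**
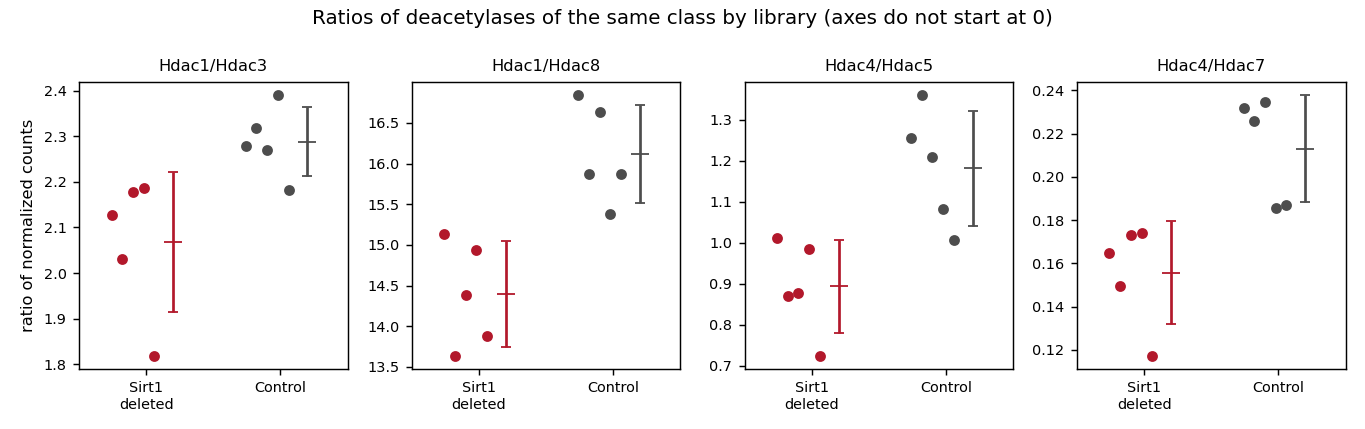
Ratios of normalized counts for 4 pairs of deacetylases of the same class, 1 point per library, with Sirt1 deleted (n = 5) left of Control (n = 5) and the mean ± SD beside each group; axes do not start at 0. The groups do not overlap for Hdac1/Hdac8 (13.6 to 15.1 in Sirt1 deleted, against 15.4 to 16.8 in Control libraries) and for Hdac4/Hdac7 (0.117 to 0.174 in Sirt1 deleted, against 0.186 to 0.235 in Control libraries).

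The class IIb gene Hdac6 (chromosome X, 7930120 to 7947889, minus strand) encodes the cytoplasmic deacetylase of tubulin. It held 1627, 1633, 1541, 1626 and 1883 in Sirt1 deleted libraries 1 to 5, and 1619, 1630, 1683, 1512 and 1491 in Control libraries 1 to 5. Sirt1 deleted library 5 stood above the rest, and the other libraries of that group lay within the Control range. This gave a log2 difference of 0.06 (95% interval -0.07 to 0.20, limma adjusted p = 0.447). It was 0.13 after correction (limma adjusted p = 0.137), and 0.19 when corrected at the second-longest coding transcript, which just passed (limma adjusted p = 0.0498). Without Sirt1 deleted library 5 it was 0.02, and without Control library 5 it was 0.04.

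Hdac10 (chromosome 15, 89123307 to 89128700, minus strand), whose product deacetylates polyamines, held 1102, 1134, 924, 1053 and 1190 in Sirt1 deleted libraries 1 to 5. Control libraries 1 to 5 held 1035, 1010, 1006, 983 and 987. As for Hdac7, Sirt1 deleted library 3 lay below every Control library, and here the other 4 lay above every one. The log2 difference was 0.10 (95% interval -0.05 to 0.25, limma adjusted p = 0.271) and 0.00 after correction (exact permutation p = 0.929). Without Sirt1 deleted library 3 it was 0.16 (limma adjusted p = 0.0519) and without Sirt1 deleted library 5 it was 0.06, and neither passed.

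Hdac11 (chromosome 6, 91156665 to 91174692, plus strand), the class IV enzyme, which removes fatty acyl groups from lysine, held 308, 307, 249, 259 and 342 in Sirt1 deleted libraries 1 to 5. Control libraries 1 to 5 held 232, 241, 347, 247 and 280. It was the member with the fewest reads, about 154 to 368 per library, and 154 reads carry a counting error of 8.05%. Control library 3 was the highest of the 10, while all 5 Sirt1 deleted libraries lay above the Control median, and the 95% interval of the log2 difference ran from -0.14 to 0.40 (0.13, limma adjusted p = 0.443). It was 0.04 after correction (limma adjusted p = 0.831), 0.22 without Control library 3, 0.08 without Control library 1 and 0.07 without Sirt1 deleted library 5, and none of these passed.

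**Figure D4:**
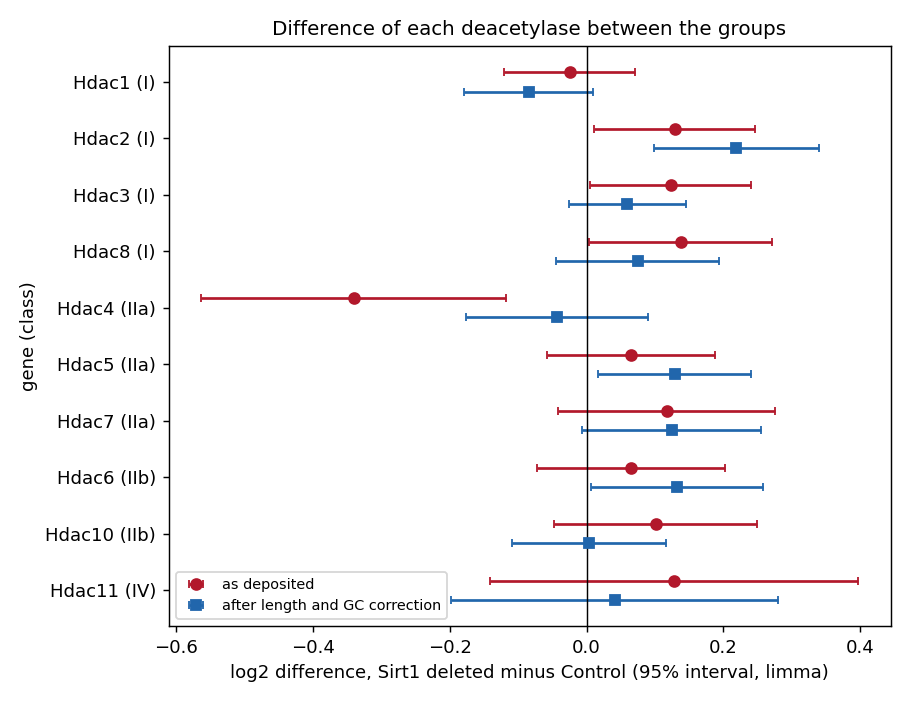
Log2 difference (Sirt1 deleted minus Control) of each deacetylase with its 95% interval from limma, as deposited (circles) and after correction for transcript length and GC content (squares). As deposited, Hdac4 (-0.34) is the called member, and after correction Hdac2 (0.22) is.

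After correction 1 of the 10 deacetylases was thus called, Hdac2 in the higher direction, where 8.29% of 13304 genes were called higher and 6.07% lower. Overlaps with exons of other genes are given as the largest for any 1 pair of exons. An exon of Hdac5 overlaps the same-strand microRNA gene Mir8101 by 111 bases. On the opposite strand, Hdac7 overlaps Slc48a1 by 29 bases and Hdac4 overlaps the lincRNA Gm26720 by 1782 bases. Hdac11 overlaps Gm44002 by 594 bases and Gm14573 by 96 bases, also on the opposite strand. Whether counting used strand is not stated, so reads there may be shared.

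Genes that work with the deacetylases were counted in 11 lists with 96 tested genes, of which 15 were called higher and 26 lower, where 14.5% of all tested genes were called higher and 17.5% lower. Their median log2 difference was -0.07, against 0.00 over all genes tested. Groups did not overlap for 28 of the 96, against 16.5% of all tested genes. After correction 8 were called higher and 8 lower, with a median of -0.03, where 8.29% of all tested genes were called higher and 6.07% lower. The same shares, 14.5% higher and 17.5% lower as deposited, are the background of each list that follows, and with lists of this size a count near them says nothing particular of the list. With the macrophage markers in the model 0 of the 96 were called (8 higher and 27 lower at an unadjusted limma p under 0.05). That fit called 0 genes of the whole table, and the share of all tested genes at the unadjusted threshold was not counted.

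Of 12 NuRD subunits, 3 rose and 2 fell. Gatad2b, a scaffold subunit, averaged 792 ± 245 normalized counts in Sirt1 deleted and 1584 ± 338 in Control libraries (log2 difference -1.03, limma adjusted p = 0.00855), and was still called lower after correction (-0.70). With the length slope as a covariate, a fit in which 0 genes of the table were called, Gatad2b stood at -0.000462 (limma adjusted p = 0.9995). Cdk2ap1, a small subunit, rose by 0.23 and stood at -0.03 after correction. Of 13 SIN3 subunits, 3 rose and 4 fell. The chromatin-binding subunit Arid4a fell by 0.36 and Sap30l rose by 0.25. After correction Arid4a stood at -0.13 and Sap30l at -0.25, and neither passed. Arid4a kept its call at the second-longest coding transcript, while Sap30l did not (-0.0448, limma adjusted p = 0.674).

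Of 9 CoREST subunits, 1 rose and 3 fell. Rcor1, the scaffold that holds Hdac1 or Hdac2, averaged 1386 ± 385 in Sirt1 deleted and 2440 ± 332 in Control libraries (log2 difference -0.86, limma adjusted p = 0.00911), and -0.61 was left after correction, which passed. Hmg20b rose by 0.31 and stood at -0.01 after correction, and its call was lost without Control library 2 (0.266). Of 3 MiDAC subunits, 1 fell, the scaffold Elmsan1 (-0.30, corrected -0.05). That call was lost after correction and without Control library 1, 2, 3 or 4 or Sirt1 deleted library 2 (-0.304 to -0.271). Of 5 NCoR/SMRT subunits, 1 rose and 2 fell. Tbl1x averaged 1639 ± 457 in Sirt1 deleted and 2963 ± 458 in Control libraries (log2 difference -0.90, limma adjusted p = 0.00902), and still passed after correction (-0.66). Gps2 rose by 0.35 and stood at 0.10 after correction, which did not pass. When corrected at the second-longest coding transcript, Gps2 was still called.

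Of 4 MEF2 factors, the binding partners of class IIa proteins, 1 rose and 1 fell. Mef2b averaged 182 in Sirt1 deleted and 117 in Control libraries (log2 difference 0.64), and Mef2a 1571 in Sirt1 deleted and 2198 in Control libraries (-0.49). After correction Mef2b stood at 0.23 and Mef2a at -0.22, and neither passed. At the second-longest coding transcript Mef2b kept its call, while Mef2a did not (-0.23, limma adjusted p = 0.0718). Of 13 kinases that phosphorylate class IIa proteins or activate such kinases, 1 rose and 5 fell, against 14.5% called higher and 17.5% lower over all tested genes. The salt-inducible kinase Sik2 averaged 384 ± 58.6 in Sirt1 deleted and 615 ± 96.9 in Control libraries (log2 difference -0.68, limma adjusted p = 0.00797), and stood at -0.45 after correction. Stk11, which activates the salt-inducible kinases, rose by 0.31, with 0.17 left after correction, and both corrected values passed. Corrected at the second-longest coding transcript, Stk11 stood at 0.14 and did not pass (limma adjusted p = 0.0557). With the length slope as a covariate, a fit in which 0 genes of the table were called, Sik2 stood at -0.12 and Stk11 at 0.08. Of 7 genes of 14-3-3 proteins, 1 rose, Sfn (0.35, corrected 0.09); its call was lost after correction and without Control library 2 (0.305).

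Of 13 genes of cohesin and its acetylation, the setting in which Hdac8 acts, 0 rose and 7 fell, against 17.5% called lower over all tested genes, with a median log2 difference of -0.33. Nipbl, the loader of cohesin, averaged 4917 ± 694 in Sirt1 deleted and 6677 ± 759 in Control libraries (log2 difference -0.45). Its longest transcript has 9423 bases, and it stood at -0.05 after correction, when 2 of the 13 genes were called lower, against 6.07% over all tested genes, and the median was -0.05. Of 10 genes of polyamine metabolism, which share a pathway with Hdac10, 3 rose and 1 fell: the antizyme gene Oaz2 rose by 0.24 and Azin1 fell by 0.35, with 0.11 and -0.11 after correction, and neither corrected value passed. Oaz2 kept its call at the second-longest coding transcript, and Azin1 did not (-0.0989, limma adjusted p = 0.217). Without Control library 1, 2 or 4 or Sirt1 deleted library 2, neither gene was called (0.199 to 0.235 for Oaz2 and -0.341 to -0.324 for Azin1). Of 7 substrates and partners of Hdac6, 1 rose, the autophagy receptor Sqstm1 (0.18, corrected 0.14). The corrected Sqstm1 value did not pass (limma adjusted p = 0.0584), and the call was lost in 6 of 10 fits that leave out 1 library: Control library 1, 2 or 4, or Sirt1 deleted library 2, 3 or 5 (0.153 to 0.177).

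**Figure D5:**
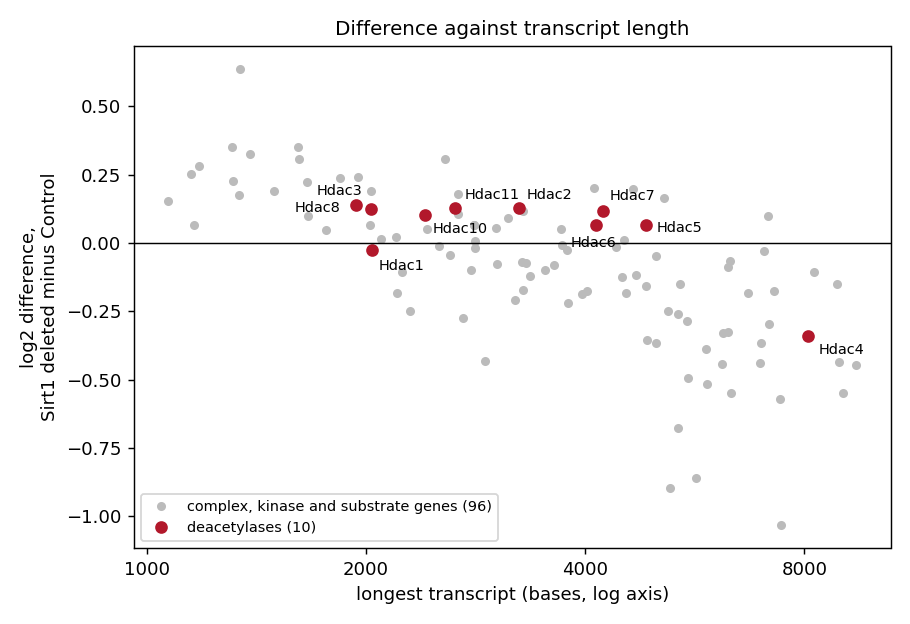
Log2 difference (Sirt1 deleted minus Control, as deposited) against the length of the longest transcript (log axis) for the 10 deacetylases and for 96 genes of their complexes, kinases and substrates. Values decline toward long transcripts, Hdac4 lies at 8100 bases and -0.34, and the other 9 deacetylases lie between -0.02 and 0.14.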

How the data were processed

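Per the submitters' processing notes, the authors used build mm10, kallisto 0.44.0 for quantification and DESeq, whose version is not named, for normalization. The authors deposited the resulting signal as normalized counts, 1 column per library, with values that are not whole. Of the lowest values, 85.7% to 91.3% per library lay within 0.1 of a multiple of 1 step; higher values did not allow whole reads to be recovered, so no count model was fitted. Neither the annotation, nor how transcripts became genes, nor whether strand was used is given in the sources used here. Per the labels' protocols, red cells were lysed before RNA extraction.

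Values were tested as log2(value + 1), Sirt1 deleted minus Control, with limma 3.58.1 (limma-trend) in R 4.3.3 without covariates, and Benjamini-Hochberg values were taken over all 13567 genes. Single members and ratios were tested by exact two-sided permutation. Alternatives were pseudocounts of 0.5 and 5, no filter, a minimum of 50, TMM factors, scaling to equal totals, quantile normalization, robust fits, marker covariates and leaving out each library. The length and GC correction subtracted natural splines (5 degrees of freedom each) per library, at the longest coding GENCODE M21 transcript. For genes without a coding transcript the longest of any kind was used, and a length was known for 13304 genes. A second correction used the second-longest coding transcript. Genes with a single coding transcript, such as Hdac1, Hdac3 and Hdac8, kept that transcript in it. Both corrections also remove true differences that follow length. Figures were drawn with matplotlib 3.10.9 from tables made with pandas 2.3.3 in Python 3.11.15.

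The members and lists were chosen with earlier results of these data known, and the pair ratios and the second correction were added after values were seen. Named genes are the 10 members, Sirt1, the called gene with the smallest p in each direction from each list, and the 3 genes nearest to the member with the largest called fall. No member rose, so no genes near a rise are named.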

Additional observations from a re-analysis of the deposited data

Results flagged for a closer look

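In the Sirt1 deleted group, 1 library stood apart from the other 4 for 2 of the members. Hdac3 reached 4667 normalized counts in Sirt1 deleted library 5, with a gap to the next library of 0.757 of the group's range. Hdac6 reached 1883 in the same library, with a gap of 0.729. Both gaps exceed Dixon's 95% critical value for 5 samples, in 2 of 22 groups examined, and chance flags about 1 in 20 groups. Sirt1 deleted library 5 also has the steepest length slope of the 10 libraries (-0.201); its part in these values was not tested. Without that library the log2 difference of Hdac6 was 0.02.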

How the results depend on the processing

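Pseudocounts, filters, TMM factors, equal totals and robust fits changed none of the 4 counts of called genes by over 1.5 times. Deacetylases called higher numbered 0 as reported, 2 after quantile normalization (Hdac2 and Hdac3), 1 after the length and GC correction, 2 with the second-longest transcript, and 0 to 1 without single libraries. Deacetylases called lower numbered 1 as reported, 0 to 1 without single libraries, and 0 after the correction, with the length slope, the B cell or the macrophage markers in the model, and without the 3 libraries of steepest slope. Partner genes called higher numbered 15 as reported, 8 after correction and 8 to 15 without single libraries. Those called lower numbered 26 as reported, 8 after correction, 16 with the second-longest transcript and 20 to 30 without single libraries. Over the whole table, 2345 of 13567 genes were called higher and 2092 lower after quantile normalization. With the second-longest transcript, 1530 of 13304 genes were called higher and 1375 lower. Without single libraries, 922 to 2158 of 13567 genes were called higher and 1278 to 2554 lower. Counts near these shares say nothing particular of the deacetylases or partner genes. With either marker list or the length slope in the model, and without the 3 libraries, 0 partner genes were called in either direction. At an unadjusted limma p under 0.05, 5 were higher and 1 lower with the slope. At that threshold 13 were higher and 24 lower with the B cell markers, and 8 higher and 27 lower with the macrophage markers. Without the 3 libraries, 10 were higher and 20 lower at it. The shares of all tested genes at the unadjusted threshold were not counted, so these counts say nothing particular of the partner genes.

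Signs turned as follows. With the length slope in the model the log2 differences were 0.0123 for Hdac1, -0.0247 for Hdac3, 0.0703 for Hdac4, -0.0200 for Hdac6, -0.00589 for Hdac10, -0.147 for Hdac11, 0.0626 for Azin1, 0.0989 for Elmsan1, 0.110 for Mef2a, 0.00161 for Nipbl, -0.0206 for Oaz2, 0.0526 for Rcor1, 0.0582 for Tbl1x and 0.0625 for Ncoa1. After the length and GC correction they were -0.0309 for Cdk2ap1, -0.0144 for Hmg20b and -0.248 for Sap30l. With the second-longest transcript they were -0.0369 for Hdac10, -0.0749 for Hdac11 and -0.0448 for Sap30l. Hdac1 was 0.0278 after quantile normalization, Hdac11 was -0.0433 without the 3 libraries, and the B cell markers gave -0.00404 for Hdac7 and -0.0105 for Hdac6. The macrophage markers gave -0.00123 for Hdac5 and -0.0506 for Hdac11. Sirt1 did not pass with a covariate or without the 3 libraries (-0.271 there, -0.00703 with the slope). The cause of these changes was not tested.

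Among ratios, Hdac2/Hdac8 turned to 0.144 after correction and 0.0212 without the 3 libraries, Hdac5/Hdac7 to 0.00467 and Hdac6/Hdac10 to 0.129 after correction. Without single libraries Hdac2/Hdac3 ranged from -0.0473 to 0.0309, Hdac2/Hdac8 from -0.0482 to 0.0163 and Hdac3/Hdac8 from -0.0478 to 0.00425. Ratios do not depend on scaling and were not refitted with covariates. Without the 3 libraries, 4 against 3 allow no exact p below 0.0571. No paired analysis was possible because the labels give the groups no shared replicate numbers.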

Other observations

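The table lists a further class IIa gene, Hdac9, outside the chosen set, and its values are given after they were seen. It held 197, 179, 195, 215 and 138 normalized counts in Sirt1 deleted libraries 1 to 5, and 394, 358, 315, 267 and 215 in Control libraries 1 to 5. Sirt1 deleted library 4 and Control library 5 lay close together at about 215, and the other libraries of the groups did not overlap. The log2 difference was -0.72 (SE 0.164, limma adjusted p = 0.0101, exact permutation p = 0.0159). Its longest coding transcript has 7940 bases. After the length and GC correction -0.37 was left, just past the threshold (limma adjusted p = 0.0484), and -0.47 at the second-longest coding transcript (limma adjusted p = 0.0231). With the length slope in the model the difference was -0.02 (limma adjusted p = 0.997).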
